A study of Homo sapiens with 33 samples.

Results

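FOXL2 induction was compared with the control at day 12 of a gonadal differentiation, across all genes of the count table. The comparison used 6 of the 33 RNA-seq libraries of the series, 3 from induced cells (IND) and 3 from control cells (CTRL), and was chosen by the column names alone, not by any measured value. All libraries came from H9-DDdCas9VP192-FOXL2 clone 24, a single clone of the H9 human embryonic stem cell (hESC) line. The clone carries guide RNAs to the FOXL2 promoter and an inactive Cas9 joined to the VP192 activator, in CTRL as in IND. IND cells received doxycycline (DOX), which turns on the activator gene, and trimethoprim (TMP), which stabilises the activator protein, from day 4, while CTRL cells received neither. Both groups went through the same differentiation with growth factors, inhibitors and small molecules. No library in the comparison received DOX and TMP without the activator, so the drugs and FOXL2 cannot be told apart. The 3 libraries of a group were technical replicates of 1 differentiation, so every error and p-value below measures the spread between these libraries and not that between differentiations.

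FOXL2 is a forkhead transcription factor of granulosa cells, the supporting cells of the ovary, and of the cells of the eyelid and pituitary. In the ovary it is needed to keep granulosa cells from taking on features of Sertoli cells, the supporting cells of the testis, where SOX9 plays the matching part. Supporting cells of the gonad arise from the coelomic epithelium, a sheet that expresses GATA4, LHX9, WT1 and NR5A1. Day 12 cells were checked against markers: POU5F1, which defines hESCs, was at 0.214 CPM (counts scaled by library size) in CTRL and 0.217 in IND (means of n = 3), and NANOG did not pass the filter on low counts. NR5A1, which defines steroid-producing and supporting cells of the gonad, was near the floor at 0.283 CPM in CTRL and 0.417 in IND, so the cells are called by their group here and not by a gonadal cell type.

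Library totals ran from 29348640 to 51912815 counts, and 3 counts were worth 0.0565 to 0.101 CPM. IND replicate 1 stood apart: its root mean square log2 distance was 0.455 to replicate 2 and 0.44 to replicate 3, against 0.261 between those, and 26262 genes had counts in it, against 27393 to 29002 in the other 5. Mitochondrially encoded genes took 2.88% to 3.07% of the counts in CTRL and 2.01% to 2.6% in IND. In bulk RNA, fewer cells of a type and less RNA per cell cannot be told apart. The libraries were not strand-specific, so reads of overlapping and antisense genes cannot be told apart either.

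The targeted gene was examined first. FOXL2 had 0.132, 0.066 and 0.15 CPM in CTRL replicates 1 to 3 and 242, 211 and 219 CPM in IND. Its log2 fold change was 10.87 ± 0.22 (SE worked back from the test statistic, adjusted p = 9.93e-08). All IND libraries were far above all CTRL libraries. Its neighbours on both sides were higher in IND too. FOXL2NB, the neighbour that starts just upstream of FOXL2 on the opposite strand, had 0.0376, 0.022 and 0 CPM in CTRL and 24.9, 34.8 and 46.4 CPM in IND (adjusted p = 2.05e-05). LINC01391, a long non-coding RNA just downstream on the FOXL2 strand, had no count in any CTRL library and 19.9, 18.9 and 28.4 CPM in IND, at least 339-fold higher on a floor of 3 counts in the shallowest CTRL library. In the coordinates of the deposited table (GRCh38), FOXL2 spans chr3:138944224-138947140 on the minus strand, FOXL2NB chr3:138947234-138953451 on the plus strand and LINC01391 chr3:138935189-138944020 on the minus strand. The 3 genes do not overlap in these coordinates, and their summed level was 287, 265 and 294 CPM in IND. All 3 passed the test whichever library was left out.

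The activator was directed to the FOXL2 promoter, whose RefSeq window of 250 bases before to 50 after the start (GRCh38.p14, chr3:138947088-138947387, minus strand) is shown 5′ to 3′ because it also holds the start of the divergent FOXL2NB.
FOXL2: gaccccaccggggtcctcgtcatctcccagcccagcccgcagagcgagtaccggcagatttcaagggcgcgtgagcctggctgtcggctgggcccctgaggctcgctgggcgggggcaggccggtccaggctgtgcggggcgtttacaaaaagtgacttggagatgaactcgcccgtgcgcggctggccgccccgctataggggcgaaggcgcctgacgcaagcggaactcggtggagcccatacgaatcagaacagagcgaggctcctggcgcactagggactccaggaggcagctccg
The mean level of FOXL2 in IND was highest at day 6 and lower on each later day. Over days 6, 8, 10, 12 and 14 it was 528 ± 59.9, 275 ± 40.0, 261 ± 27.2, 224 ± 16.2 and 171 ± 20.4 CPM (mean ± SD, n = 3 each). Days 8 and 10 differed by less than their SD.

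Of 19924 genes that passed the filter on low counts, 475 (2.38%) were upregulated and 605 (3.04%) downregulated in IND, together 1080 (5.42%). edgeR's quasi-likelihood test was used, with a Benjamini-Hochberg adjusted p under 0.05 over all genes tested. Protein-coding genes made up 436 of the upregulated and 545 of the downregulated genes. The median absolute log2 fold change of the called genes was 1.33, and the median log2 fold change over all genes tested was 0.02. All IND libraries were above all CTRL libraries for 2900 genes (14.6%) and below them for 3128 (15.7%), and every called gene was among these. The count of calls depended on single libraries. Leaving out CTRL replicate 1, 2 or 3 gave 508, 496 or 417 calls, and leaving out IND replicate 1, 2 or 3 gave 1979, 590 or 896. No called gene changed direction in any of these 6 fits. That follows from the lack of overlap in every called gene and is no separate support.

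**Figure D1:**
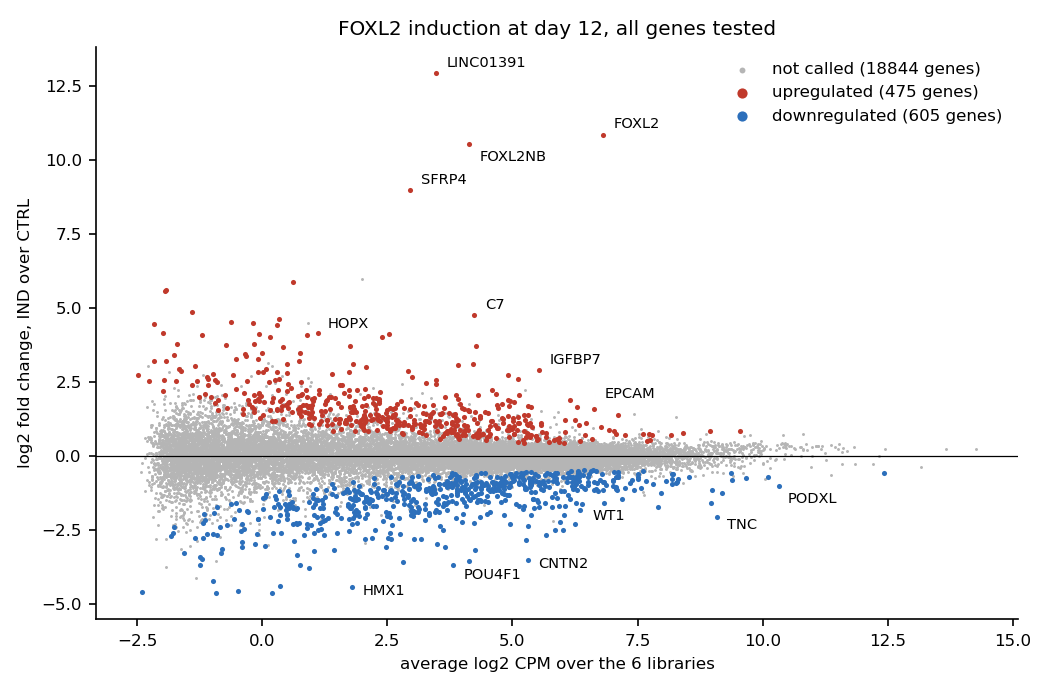
Log2 fold change of each tested gene (IND over CTRL, vertical axis) against its average level in the 6 day 12 libraries (average log2 CPM, horizontal axis), with 475 upregulated genes in red and 605 downregulated genes in blue. FOXL2, FOXL2NB, LINC01391 and SFRP4 lie apart from all other genes at log2 fold changes of 8.99 to 12.95, while PODXL and TNC are labelled among the abundant genes that fell.

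Among called genes with average log2 CPM of at least 1, SFRP4 and C7 rose most outside the FOXL2 locus. Genes of secreted, membrane and intracellular proteins followed them. SFRP4, a secreted WNT antagonist, had 0, 0 and 0.0859 CPM in CTRL and 15.9, 13.1 and 17.5 CPM in IND (log2 fold change 8.99 ± 0.54, adjusted p = 0.000147). It was thus at or near the floor in CTRL and present in every IND library. C7, a component of the complement membrane attack complex, had 1.07, 1.54 and 1.4 CPM in CTRL and 32.5, 36 and 40.5 CPM in IND (4.77 ± 0.19, adjusted p = 1.25e-05). FIBIN, a secreted protein first described in fin bud development, stood at 2.63, 2.66 and 2.79 CPM in CTRL and 35.6, 35.5 and 37.1 CPM in IND, with little spread in either group. Among abundant genes, IGFBP7, a secreted binder of insulin-like growth factors, went from 6.62, 10.7 and 15 CPM in CTRL to 93.2, 82 and 68.9 CPM in IND (fold 7.56, adjusted p = 0.00137). HTRA1, a secreted serine protease, rose 3.17-fold and the membrane proteoglycan GPC4 2.64-fold.

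Intracellular and membrane proteins with large rises were HOPX, a small homeodomain protein that does not bind DNA (16.5-fold), GPAT3, an enzyme of triglyceride synthesis (13.3-fold), RARRES3, a retinoid-responsive phospholipase (17.9-fold), and the carbonic anhydrase CA4 (8.65-fold). SPINK1, a trypsin inhibitor, was at 0.226, 0.616 and 1.03 CPM in CTRL and 10.0, 17.5 and 5.03 CPM in IND, so its IND libraries differed among themselves by more than 3 times. FAM78A had 4.24, 3.41 and 3.78 CPM in CTRL and 36.1, 27.5 and 36.2 CPM in IND. The most abundant upregulated genes by FPKM, among those changed at least 2-fold, also held EPCAM, WFDC2 and CLDN3, genes of epithelia, the first 2 of which had 48.8 and 14.4 CPM in CTRL and 148 and 51 CPM in IND (means). MAB21L2, a gene of eye and gut development, rose 2.35-fold and the focal adhesion gene TES 2.09-fold. Among these 11 called genes, 7 passed in all 6 fits that left 1 library out, with the fewest passing without IND replicate 1.

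Several large falls were of genes outside the neuron list, which does not hold every gene that neurons express. ISM1, a secreted antagonist of angiogenesis, had 25.7, 21.2 and 20.2 CPM in CTRL and 3.46, 1.1 and 3.58 CPM in IND (-3.06 ± 0.38, adjusted p = 0.00406). EBF1, a transcription factor of B cells, neurons and stroma, fell from 17.6, 5.53 and 6.1 CPM to 0.715, 1.06 and 1.79 CPM (-3.07 ± 0.53, adjusted p = 0.0132), and CTRL replicate 1 was the highest library. SPHKAP, an anchor of protein kinase A, fell by 3.17 on the log2 scale. KCNH6, a potassium channel of the ERG family, had 3.54, 1.1 and 1.44 CPM in CTRL and 0.156, 0.0649 and 0 CPM in IND (adjusted p = 0.0101), so it was near the floor in IND. SST, the hormone somatostatin, was among the most abundant downregulated genes by FPKM, with 61.9, 40.3 and 49.8 CPM in CTRL and 21.3, 12.5 and 15.7 CPM in IND (-1.62 ± 0.23, adjusted p = 0.00574). When 1 library was left out, 4 of the 5 called genes above passed in every fit, the fewest without IND replicate 1.

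**Figure D2:**
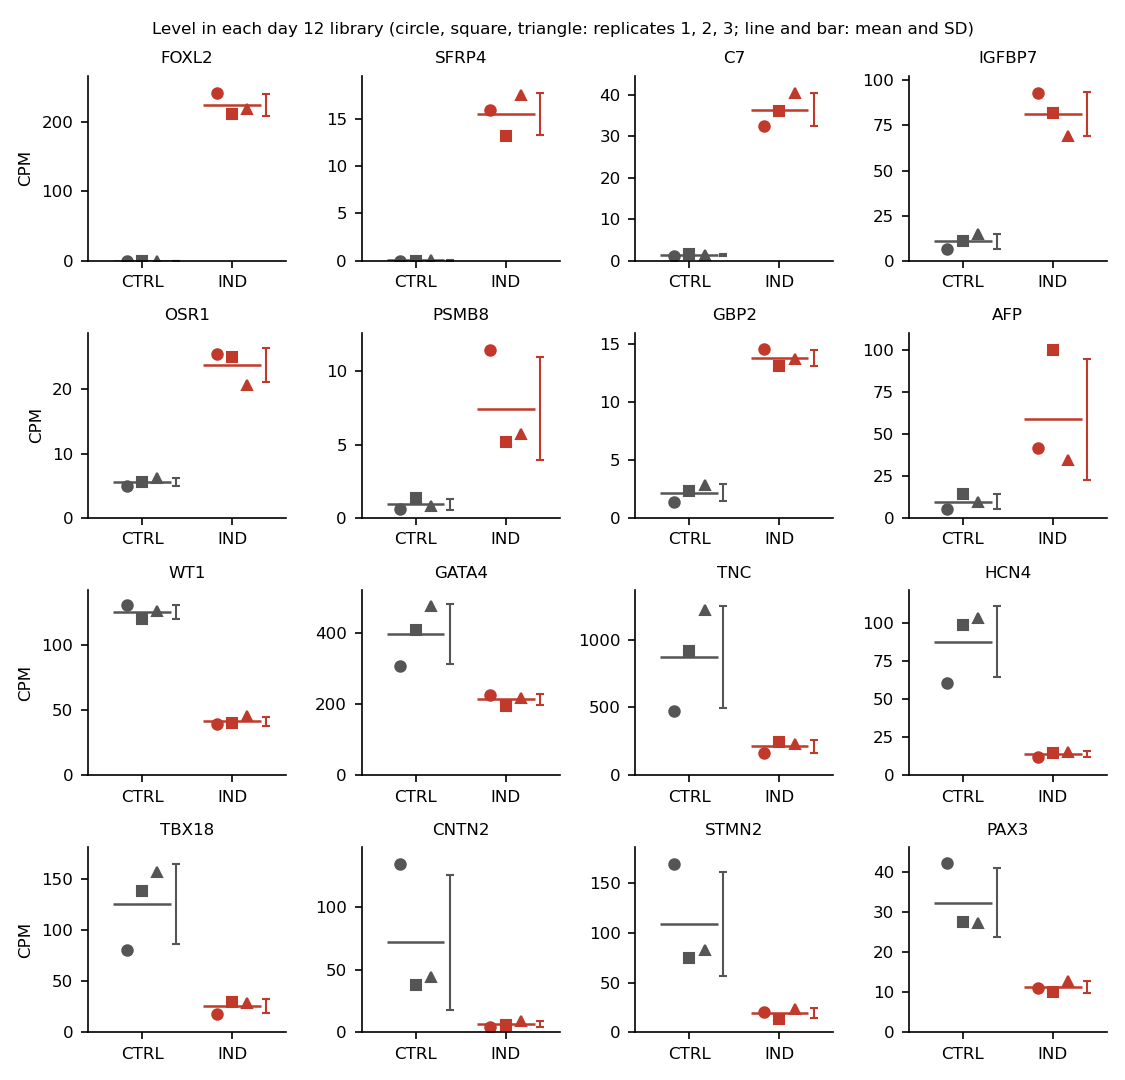
CPM of 16 genes (vertical axes, each from 0) in the 3 CTRL libraries (grey) and the 3 IND libraries (red) of day 12, with the mean as a line and the SD as a bar (n = 3). The groups do not overlap in any panel; CTRL replicate 1 (circle) is the highest CTRL library for CNTN2, STMN2 and PAX3 and the lowest for GATA4, TNC, HCN4 and TBX18.

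Some transcription factors of the early gonad were lower in IND. Of 13 tested, 4 fell (30.8%, against 3.04% of all genes tested) and none rose (against 2.38%). The median log2 fold change was -0.33. WT1, a zinc finger factor needed for gonad and kidney formation, had 131, 120.2 and 126 CPM in CTRL and 39.2, 39.8 and 45.4 CPM in IND (-1.60 ± 0.11, adjusted p = 0.000441). GATA4, needed for the thickening of the genital ridge, had 309, 408 and 478 CPM in CTRL and 227, 196 and 219 CPM in IND (-0.90 ± 0.17, adjusted p = 0.0173). LHX9, a LIM homeobox factor of the gonad primordium, had 3.27, 6.34 and 7.45 CPM in CTRL and 0.737, 2.25 and 1.35 CPM in IND (-1.97 ± 0.43, adjusted p = 0.0359), so the groups were separate but the levels low. The most abundant members that were not called were NR2F2 (0.26, adjusted p = 0.329) and GATA6 (-0.02, adjusted p = 0.938). In fits with 1 library left out the list had 2 down at the fewest, without CTRL replicate 2, and 4 at the most, without CTRL replicate 1. The fewest of these 3 calls held without CTRL replicate 2 or CTRL replicate 3, and 1 held in all 6 fits with a library left out.

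Coelomic epithelium and mesothelium genes split. Of 16 tested, 4 fell (25%, against 3.04% of all genes tested) and 1 rose (6.25%, against 2.38%), with a median of -0.18. HAS1, a hyaluronan synthase, fell from 10.0, 8.63 and 10.7 CPM to 2.06, 0.951 and 1.28 CPM (-2.77 ± 0.29, adjusted p = 0.00207). CALB2, the mesothelial marker calretinin, fell by 2.61, LRRN4 by 1.00 and BNC1, a zinc finger factor of mesothelium, by 0.82 on the log2 scale. UPK3B, a uroplakin that marks coelomic epithelium, had 33.6, 33.2 and 28.6 CPM in CTRL and 29.9, 24.1 and 27.4 CPM in IND and was not called (-0.23 ± 0.13, adjusted p = 0.373). CDH1, the epithelial cadherin, rose from 40.6, 70.2 and 55.2 CPM to 90.3, 168 and 102 CPM (adjusted p = 0.0468). The keratins KRT8 (0.40, adjusted p = 0.286) and KRT19 (0.41, adjusted p = 0.357) were the most abundant members and were not called. The number down in the list ranged from 2 without CTRL replicate 2 to 5 without IND replicate 3. Of the 5 called genes named here, 2 passed the threshold whichever library was left out, the fewest without CTRL replicate 2 or CTRL replicate 3.

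Markers that the study used for transitional and early supporting cells were mixed. The study took such markers from earlier single-cell studies of human gonads and reported their changes in these same samples. Of 5 tested, OSR1 and TAC1 rose (40%, against 2.38% of all genes tested) and GATA2 fell (20%, against 3.04%). OSR1, a zinc finger factor of intermediate mesoderm, had 4.93, 5.57 and 6.27 CPM in CTRL and 25.4, 25.1 and 20.7 CPM in IND (2.09 ± 0.16, adjusted p = 0.000491). TAC1, the precursor of substance P, rose at a low level from 0.232 to 1.15 CPM (adjusted p = 0.0316). GATA2 had 10.6, 12.4 and 17.4 CPM in CTRL and 4.09, 3.11 and 3.78 CPM in IND (-1.88 ± 0.23, adjusted p = 0.00346). LGR5, an R-spondin receptor, was not called (0.73 ± 0.32, adjusted p = 0.251), and TSPAN8 did not pass the filter. Among these 3 called genes, 2 passed in all 6 fits that left 1 library out, with the fewest passing without CTRL replicate 1, CTRL replicate 2, CTRL replicate 3 or IND replicate 3.

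Ovarian and granulosa genes changed in both directions, with 4 of 18 tested up and 2 down (median 0.51). These were 22.2% up and 11.1% down, against 2.38% and 3.04% of all genes tested. NR5A2, an orphan receptor of granulosa cells, rose 2.53-fold from 1.83, 4.69 and 3.76 CPM to 7.44, 8.49 and 9.98 CPM (adjusted p = 0.0481). The Iroquois factors IRX5 and IRX3 rose 2.23-fold and 1.68-fold, and RUNX1, a factor of early granulosa cells, 1.81-fold. INHBA, the activin A subunit, fell from 10.3, 18.6 and 22.1 CPM to 3.75, 6.89 and 6.17 CPM (-1.60 ± 0.32, adjusted p = 0.0235), and FOXO1 by 0.56 on the log2 scale. RSPO1, an activator of WNT signalling in the ovary, had 42.7, 42.1 and 34.9 CPM in CTRL and 30.6, 17.7 and 22 CPM in IND and was not called (-0.76 ± 0.20, adjusted p = 0.0644), nor was WNT4 (-0.77 ± 0.32, adjusted p = 0.221). The activin binder FST, a known FOXL2 target in granulosa cells, had 41.5, 57.5 and 55.1 CPM in CTRL and 91.9, 76.6 and 68.1 CPM in IND (adjusted p = 0.0679). The aromatase gene CYP19A1 did not pass the filter. Single libraries mattered, with 0 of the list up without CTRL replicate 2 and 3 up without IND replicate 1. When 1 library was left out, none of the 6 called genes above passed in every fit, the fewest without CTRL replicate 2 or CTRL replicate 3.

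Of 9 testis pathway genes tested, only SOX9 was called (11.1% down, against 3.04% of all genes tested). It had 20.4, 16.9 and 19.2 CPM in CTRL and 9.52, 13.9 and 10.5 CPM in IND (-0.73 ± 0.17, adjusted p = 0.047). SOX8, its close relative, had -0.57 ± 0.15 (adjusted p = 0.0674), NR0B1 -0.52 ± 0.41 (adjusted p = 0.501), and DHH and DMRT1 did not pass the filter. None of 11 steroid synthesis genes (median 0.05) was called by edgeR or by DESeq2, and 0 had an unadjusted p under 0.05. Over all 19924 genes tested, edgeR called 5.42%, and 3946 had an unadjusted p under 0.05. With 11 genes, 0 calls is near that share. STAR, which brings cholesterol into mitochondria, had 5.53 CPM in CTRL and 4.49 CPM in IND, and CYP11A1, the first enzyme of the pathway, 2.96 and 3.4. The SOX9 call was lost without any 1 of the CTRL libraries and without IND replicate 3, and in the fit without IND replicate 1 the testis list had 2 genes down and 1 up.

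**Figure D3:**
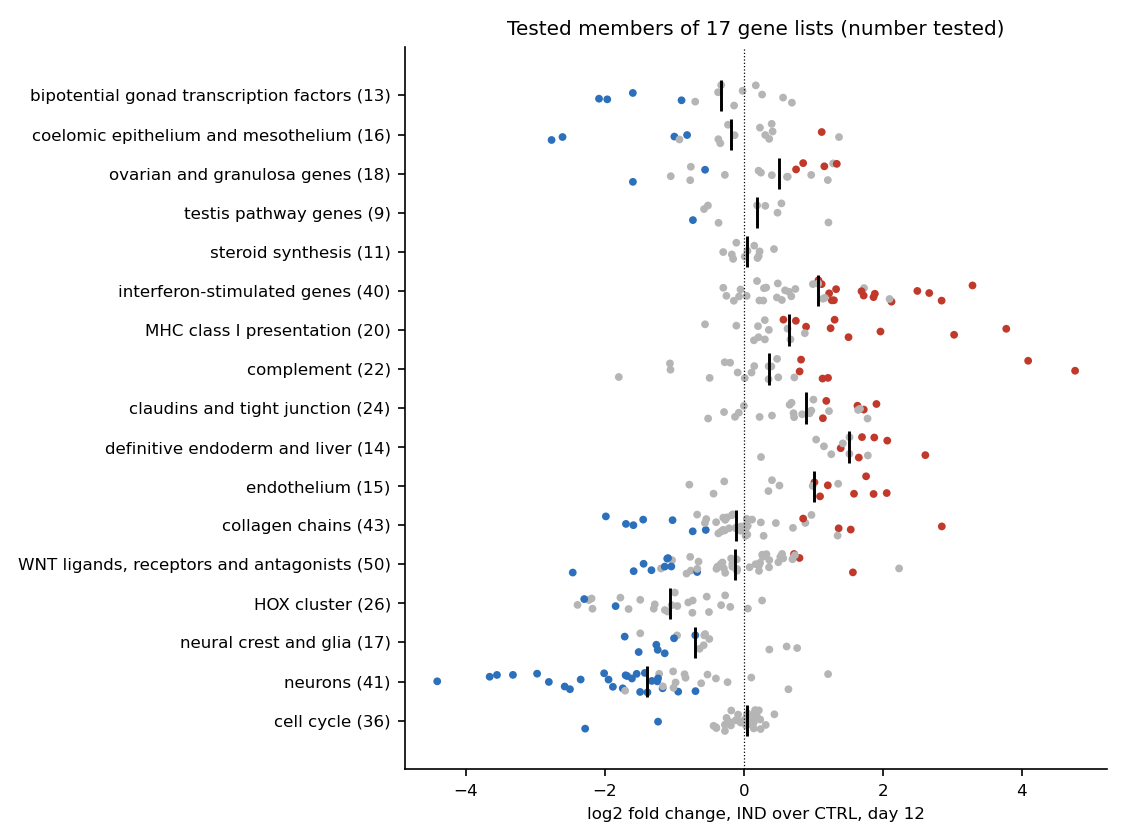
Log2 fold change (horizontal axis, IND over CTRL) of each tested member of 17 gene lists, red where upregulated, blue where downregulated and grey where not called, with the list's median as a black line. SFRP4, at 8.99, is left off the WNT row. Interferon, antigen presentation, endothelium and endoderm lists have calls to the right alone, and neuron, neural crest and HOX lists calls to the left alone.

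Interferon-stimulated genes were called in 1 direction. Of 40 tested, 15 rose (37.5%, against 2.38% of all genes tested) and none fell (against 3.04%). The median was 1.07, against 0.02 over all genes tested. GBP2, an interferon-induced GTPase, had 1.41, 2.31 and 2.81 CPM in CTRL and 14.6, 13.1 and 13.7 CPM in IND (2.67 ± 0.25, adjusted p = 0.00134). IFI6, an interferon-induced mitochondrial protein and the most abundant called member, had 14.2, 13.4 and 12.4 CPM in CTRL and 53.4, 63.2 and 29 CPM in IND (1.87 ± 0.26, adjusted p = 0.00554). TLR3, a sensor of double-stranded RNA in endosomes, had 0.696, 0.396 and 0.43 CPM in CTRL and 2.86, 1.86 and 4.01 CPM in IND (2.50 ± 0.37, adjusted p = 0.00727). The antiviral genes IFIT2 and IFIT3 rose 4.36-fold and 3.69-fold. OAS1 and IFI44L rose from 0.117 to 1.2 CPM and from 0.237 to 1.72 CPM, levels close to the floor in CTRL. The most abundant members were not called: IFITM3 had -0.14 (adjusted p = 0.734) and BST2 0.65 (adjusted p = 0.174). The summed level of the list was 1068, 1154 and 1150 CPM in CTRL and 1645, 1255 and 1221 CPM in IND, so IND replicate 1, the library that stood apart, was the highest. The count up was 5 without CTRL replicate 2 and 19 without IND replicate 1. Without IND replicate 1, 2 members were also down. Without CTRL replicate 2, CTRL replicate 3 or IND replicate 2, 4 of these 7 called genes still passed, and 3 passed in each of the 6 fits with a library left out.

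Antigen presentation by MHC class I followed the same direction, with 9 of 20 up (45%, against 2.38% of all genes tested) and none down (median 0.65). The immunoproteasome subunits PSMB8, PSMB9 and PSMB10 replace standard subunits when peptides are cut for presentation. PSMB8 had 0.602, 1.34 and 0.816 CPM in CTRL and 11.5, 5.17 and 5.73 CPM in IND (3.03 ± 0.41, adjusted p = 0.00516). PSMB9 was near the floor in CTRL (0, 0.198 and 0.043 CPM) and had 1.48, 0.605 and 1.21 CPM in IND (adjusted p = 0.0328), and PSMB10 rose 2.84-fold. TAP1, 1 subunit of the pump that carries peptides into the endoplasmic reticulum, had 0.772, 2.58 and 2.6 CPM in CTRL and 7.87, 8.13 and 7.12 CPM in IND (1.97 ± 0.40, adjusted p = 0.0246). The heavy chains HLA-B and HLA-C rose 2.47-fold and 1.86-fold and the light chain B2M 1.68-fold. The HLA class I genes are near-identical in stretches, so reads may be split among them. The general chaperones CALR (0.20, adjusted p = 0.493) and PDIA3 (0.30, adjusted p = 0.239) were the most abundant members and were not called. In fits with 1 library left out the list had 2 up at the fewest, without CTRL replicate 3, and 10 at the most, without IND replicate 1. Of the 7 called genes named here, 1 passed the threshold whichever library was left out, the fewest without CTRL replicate 3.

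The interferon-stimulated response element, searched as GAAA, any 2 bases and GAAA on both strands of the same RefSeq windows, was counted in these promoters as a description. It was in 23 of the 33 tested interferon-stimulated genes with a RefSeq window (69.7%), in 9 of 12 upregulated ones (75%) and in 14 of 21 not called (66.7%), against 3.57% of all 35116 windows. Of 16 tested MHC class I genes with a window, 9 held it (56.2%). Among protein-coding genes only 76.4% of the upregulated and 74.1% of the downregulated had a window, so a search over all called genes was void. The windows of 3 upregulated genes are shown 5′ to 3′ on the gene's strand, with each match in capitals (on the opposite strand in all 3, so it reads TTTC, 2 bases, TTTC), since they differ in where the match lies. They lie on the plus strand at chr10:89327747-89328046 (IFIT3), on the minus strand at chr6:32853655-32853954 (TAP1, with 2 overlapping matches) and on the plus strand at chr4:186068906-186069205 (TLR3), all GRCh38.p14.
IFIT3: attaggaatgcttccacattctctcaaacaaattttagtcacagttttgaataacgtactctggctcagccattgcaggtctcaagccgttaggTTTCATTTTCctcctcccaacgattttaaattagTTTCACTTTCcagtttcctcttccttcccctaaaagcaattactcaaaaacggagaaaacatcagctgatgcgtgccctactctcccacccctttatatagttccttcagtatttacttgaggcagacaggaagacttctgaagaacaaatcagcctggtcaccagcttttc
TAP1: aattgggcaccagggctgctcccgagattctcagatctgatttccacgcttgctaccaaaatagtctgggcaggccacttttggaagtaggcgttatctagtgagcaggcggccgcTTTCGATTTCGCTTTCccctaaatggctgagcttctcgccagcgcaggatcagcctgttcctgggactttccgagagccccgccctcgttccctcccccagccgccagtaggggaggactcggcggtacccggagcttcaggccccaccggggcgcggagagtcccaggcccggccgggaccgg
TLR3: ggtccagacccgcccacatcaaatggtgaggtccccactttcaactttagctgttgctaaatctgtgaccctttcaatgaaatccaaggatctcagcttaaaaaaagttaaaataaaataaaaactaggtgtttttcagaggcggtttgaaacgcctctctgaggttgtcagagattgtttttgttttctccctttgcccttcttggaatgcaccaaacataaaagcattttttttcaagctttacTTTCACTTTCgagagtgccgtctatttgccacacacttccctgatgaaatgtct
Counted from the start of the gene, the matches began at -156 and -122 in IFIT3 and at -134 and -128 in TAP1, while the match in TLR3 began at -4 and ended within the transcript. Whether anything bound these windows was not measured.

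Complement genes gave 6 upregulated (27.3%, against 2.38% of all genes tested) and no downregulated members of 22 tested (median 0.36). Besides C7, the membrane attack component C6 rose from 0.0188, 0.022 and 0.0859 CPM to 0.626, 1.17 and 0.439 CPM (adjusted p = 0.0118), from about the floor. The proteases of the first component, C1R and C1S, rose 2.19-fold and 2.31-fold, and the inhibitor CD55 1.77-fold. The inhibitor SERPING1, the most abundant member, had -0.20 (adjusted p = 0.532). In coagulation and fibrinolysis 3 of 20 rose (15%), among them F10 (2.42-fold) and SERPINE2 (2-fold). PROCR and PROS1 fell (10%, against 3.04% of all genes tested). The number up in the list ranged from 3 without CTRL replicate 1 to 7 without IND replicate 1. Among these 9 called genes, 3 passed in all 6 fits that left 1 library out, with the fewest passing without CTRL replicate 2.

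Neuronal genes held more calls than any other list. Of 41 tested, 26 fell (63.4%, against 3.04% of all genes tested) and none rose (against 2.38%), with a median of -1.39. POU4F1, a transcription factor of sensory neurons, had 43.6, 15.6 and 18.4 CPM in CTRL and 1.52, 1.1 and 3.71 CPM in IND (-3.66 ± 0.54, adjusted p = 0.0069). NEUROD1, which drives neuronal differentiation, had 24.6, 6.52 and 6.87 CPM in CTRL and 0.693, 0.756 and 1.89 CPM in IND (-3.56 ± 0.62, adjusted p = 0.0148). STMN2, a regulator of microtubules in axons, had 169, 75.1 and 82.6 CPM in CTRL and 21, 13.4 and 23.3 CPM in IND (-2.50 ± 0.34, adjusted p = 0.00521). In all of these CTRL replicate 1 was well above CTRL replicates 2 and 3, and the groups still did not overlap. The glutamate transporter SLC17A6 (-3.33) and NHLH1, a helix-loop-helix factor of young neurons (-2.98), fell as well. HMX1, a homeobox factor of sensory ganglia, was at 0.536, 0.0865 and 0.27 CPM in IND against 13.8, 1.85 and 3.52 CPM in CTRL. Outside the list, PPP1R17, a phosphatase inhibitor of neurons, fell from 58.7, 17.1 and 20.1 CPM to 2.81, 1.51 and 4.08 CPM. CNTN2, an axonal adhesion protein, had 134, 37.9 and 44 CPM in CTRL and 4.27, 5.86 and 9.24 CPM in IND (-3.49 ± 0.52, adjusted p = 0.00727), and P2RX3, an ATP receptor of sensory neurons, fell by 3.16. DCX, an abundant gene of migrating neurons, had -0.40 (adjusted p = 0.334) and ISL1 0.64 (adjusted p = 0.237). The summed level of the list was 1316, 877 and 945 CPM in CTRL and 465, 387 and 546 CPM in IND. Single libraries mattered, with 13 of the list down without IND replicate 1 and 20 down without IND replicate 3. When 1 library was left out, 1 of the 9 called genes above passed in every fit, the fewest without IND replicate 1.

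Neural crest and glia genes moved the same way, with 7 of 17 down (41.2%, against 3.04% of all genes tested) and none up (median -0.70). PAX3, a paired box factor of the neural crest, had 42.2, 27.4 and 27.2 CPM in CTRL and 11, 10.1 and 12.8 CPM in IND (-1.51 ± 0.20, adjusted p = 0.00487). TFAP2A, another factor of the crest, fell by 1.26 on the log2 scale and SOX10, the factor of its glial branch, by 1.01. SOX2 was not called (0.37, adjusted p = 0.44). Of 31 neural adhesion molecules 6 fell (19.4%), L1CAM among them (-1.72), and 1 rose (3.23%, against 2.38% of all genes tested), CNTN1, 2.76-fold. Of 70 guidance cues and receptors 9 fell (12.9%) and 1 rose (1.43%). Those that fell included the receptors PLXNA4 (-2.04) and EPHA3 (-1.54) and the ligand SLIT2 (-1.17). The 1 that rose was the endothelial receptor ROBO4 (3-fold). The count down was 4 without CTRL replicate 1 and 9 without IND replicate 1. The fewest of these 9 calls held without CTRL replicate 1, and 5 held in all 6 fits with a library left out.

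Of 14 definitive endoderm and liver genes tested, 6 rose (42.9%, against 2.38% of all genes tested) and none fell. All 14 fold changes were positive (median 1.52). AFP, the fetal serum protein of liver and yolk sac, had 5.21, 14.2 and 9.54 CPM in CTRL and 41.9, 100.3 and 34.3 CPM in IND (2.61 ± 0.47, adjusted p = 0.0161). FOXA2, a forkhead factor of endoderm, had 6.66, 16.6 and 17 CPM in CTRL and 48.2, 87.5 and 32.1 CPM in IND (2.06 ± 0.43, adjusted p = 0.0279). In both, IND replicate 2 was highest and CTRL replicate 1 lowest. The fibrinogen chain FGB rose 3.25-fold, the protease inhibitor SERPINA1 3.67-fold and the gut peptide TFF3 3.15-fold, while APOA1 had 1.26 (adjusted p = 0.0759) and ALB, which defines hepatocytes, stayed near the floor at 0.251 and 0.3 CPM. The summed level of the list was 62.5, 172 and 156 CPM in CTRL and 400.1, 526 and 316 CPM in IND. Of 24 claudin and tight junction genes, which seal epithelia, 5 rose (20.8%) and none fell (median 0.89). CLDN4 had 11.8, 41.3 and 36 CPM in CTRL and 118, 134 and 82.1 CPM in IND (adjusted p = 0.0311), and the epithelial adhesion gene EPCAM had 21.6, 68.3 and 56.4 CPM in CTRL and 143, 194 and 108 CPM in IND (adjusted p = 0.0481). Both were again lowest in CTRL replicate 1. CLDN3 rose 3.31-fold, and its sequence is close to that of CLDN4, while CLDN6 (0.97, adjusted p = 0.146) and F11R (0.84, adjusted p = 0.0767) were abundant and not called. The part of endoderm cells in the values of the tight junction genes and EPCAM was not tested. In fits with 1 library left out the list had 1 up at the fewest, without CTRL replicate 3, and 4 at the most, without IND replicate 3. For the tight junction list the count up was 0 without CTRL replicate 2 and 4 without IND replicate 1. Of the 8 called genes named here, none passed the threshold whichever library was left out, the fewest without CTRL replicate 3 or IND replicate 1.

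Endothelial genes gave 7 upregulated (46.7%, against 2.38% of all genes tested) and no downregulated members of 15 tested (median 1.01). Of the 8 that were not called, 3 had lower means in IND. PECAM1 and CDH5, adhesion proteins of vessels, rose 3.38-fold and 2.31-fold. ESAM had 1.47, 1.61 and 1.91 CPM in CTRL and 8.82, 5.94 and 5.94 CPM in IND (2.06 ± 0.24, adjusted p = 0.00306), and the factor SOX18 rose 3.65-fold. Both receptors of vascular endothelial growth factor in the list were lower in every IND library than in any CTRL library without passing the test: KDR, the member with the highest CPM in CTRL, had 72.7, 55.3 and 49.9 CPM in CTRL and 37.9, 47.2 and 46.1 CPM in IND (-0.44 ± 0.17, adjusted p = 0.186), and FLT1 had 21, 28.2 and 26.6 CPM in CTRL and 13.5, 18.4 and 12 CPM in IND (-0.79 ± 0.19, adjusted p = 0.0504). The angiopoietin receptor TEK had -0.28 (adjusted p = 0.589). The most abundant members by FPKM, EGFL7 (0.51, adjusted p = 0.29) and SOX17 (0.99, adjusted p = 0.189), which endoderm also expresses, were not called. CD34, counted among the blood markers and also made by endothelium, rose from 2.84, 2.86 and 3.16 CPM to 12.8, 10.9 and 8.26 CPM (adjusted p = 0.00254). Single libraries mattered, with 3 of the list up without CTRL replicate 1 and 7 up without IND replicate 1. Among these 5 called genes, 4 passed in all 6 fits that left 1 library out, with the fewest passing without CTRL replicate 1, CTRL replicate 2, CTRL replicate 3 or IND replicate 2.

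Muscle, stroma and kidney genes were mixed. Of 27 muscle genes 2 rose and 2 fell (7.41% each, against 2.38% and 3.04% of all genes tested). SYNPO2, an actin-binding protein of muscle, had 8.13, 12.3 and 8.61 CPM in CTRL and 28, 40.2 and 55.9 CPM in IND (2.09 ± 0.27, adjusted p = 0.00449), and MYOCD, a coactivator of smooth muscle genes, rose 4.06-fold. DES, the muscle intermediate filament, fell by 1.10 on the log2 scale and the calcium channel RYR2 by 1.21. Of 19 stroma and pericyte genes 4 rose (21.1%), SFRP4 and C7 among them, with NT5E (2.39-fold) and KCNJ8 (2.53-fold). In this list 3 fell (15.8%), PRRX1 by 1.36, THY1 by 0.90 and PDGFRA. Of 17 intermediate mesoderm and kidney genes 2 fell (11.8%), LHX1 and PODXL. LHX1, a LIM homeobox factor, fell from 5.44, 4.8 and 5.63 CPM to 0.849, 0.692 and 2.19 CPM (adjusted p = 0.0186). The cadherin CDH6 (-0.49, adjusted p = 0.239) and SALL1 (0.30, adjusted p = 0.254) were not called. When 1 library was left out, 5 of the 13 called genes above passed in every fit, the fewest without CTRL replicate 2.

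Matrix genes were called in both directions within each family. Of 43 collagen chains 4 rose (9.3%, against 2.38% of all genes tested) and 7 fell (16.3%, against 3.04%), with a median of -0.12. The most abundant chain, COL3A1 (0.24, adjusted p = 0.423), was not called. Of the chains of type I collagen, COL1A1 had 6607, 6365 and 6740 CPM in CTRL and 4378, 4637 and 4446 CPM in IND (-0.55 ± 0.12, adjusted p = 0.0393), while COL1A2 was not called (-0.27, adjusted p = 0.27). COL22A1, a chain of tissue junctions, had 102, 107 and 105 CPM in CTRL and 24.9, 28.2 and 25.9 CPM in IND (-1.99 ± 0.11, adjusted p = 0.000101). COL2A1, the cartilage collagen, had 463, 552 and 575 CPM in CTRL and 847, 1267 and 754 CPM in IND (0.85 ± 0.20, adjusted p = 0.0453). Of 11 small leucine-rich proteoglycans, which bind collagen fibrils, OGN and PRELP rose and LUM and BGN fell (18.2% in each direction). OGN rose from 0.0376, 0.044 and 0.0644 CPM, at the floor, to 2.99, 1.23 and 5.06 CPM (adjusted p = 0.00254). Of 35 matrix glycoproteins 5 rose (14.3%), EFEMP1, FBLN5, MFAP2, MFAP5 and VTN, and 2 fell (5.71%), LTBP4 and TNC (median -0.07). TNC, tenascin C, an abundant member, fell from 476, 918 and 1221 CPM to 161, 248 and 227 CPM (-2.04 ± 0.32, adjusted p = 0.00948). The CTRL libraries of TNC differed among themselves by more than 2 times, and the groups did not overlap. Among other chains COL16A1 and COL11A2 fell by 1.59 and 1.45 on the log2 scale and COL12A1 rose 2.57-fold. MFAP5 and EFEMP1, proteins of elastic fibres, rose 3.5-fold and 2.63-fold. The count down was 3 without CTRL replicate 3 and 9 without IND replicate 1. Without CTRL replicate 1, 7 of these 17 called genes still passed, and 6 passed in each of the 6 fits with a library left out.

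Matrix proteases and receptors also moved both ways. ADAMTS16 and ADAMTS5, secreted proteases, rose 3.83-fold and 3.14-fold, while ADAMTS19 and ADAMTS9 fell by 1.21 and 1.15 on the log2 scale. Of 32 integrin and laminin genes 5 fell (15.6%, against 3.04% of all genes tested) and 1 rose (3.12%, against 2.38%). The 5 that fell were all integrins. ITGA3, a laminin receptor, had 362, 360.1 and 374 CPM in CTRL and 98, 129 and 112 CPM in IND (-1.70 ± 0.13, adjusted p = 0.000491). ITGA4, a fibronectin receptor, fell by 2.05 on the log2 scale, while ITGB1, the common beta chain, had -0.10 (adjusted p = 0.804). PODXL, a sialomucin of podocytes, stem cells and coelomic epithelium, was the most abundant downregulated gene by FPKM among those changed at least 2-fold, with 1513, 1835 and 1795 CPM in CTRL and 718, 795 and 1052 CPM in IND (adjusted p = 0.0124). The kinase STK26 was next, with 783, 887 and 786 CPM in CTRL and 298, 364 and 375 CPM in IND (-1.24 ± 0.13, adjusted p = 0.0022). NPNT, nephronectin, an integrin ligand, fell by 1.12 on the log2 scale. Among cadherins CDH13, which lacks the inner part of classical cadherins, rose 2.69-fold and the endothelial PCDH12 2.2-fold, and CDH18 and PCDH10, cadherins of the nervous system, fell by 1.45 and 1.15. Of the 13 called genes named here, 6 passed the threshold whichever library was left out, and 7 passed without CTRL replicate 2 or CTRL replicate 3.

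Within WNT signalling the called ligands fell and the called secreted antagonists diverged. Of 50 genes tested 4 rose (8%, against 2.38% of all genes tested) and 9 fell (18%, against 3.04%), with a median of -0.13. WNT2B had 119, 106 and 119.9 CPM in CTRL and 33.4, 31 and 50.6 CPM in IND (-1.59 ± 0.19, adjusted p = 0.00338). The ligands WNT16, WNT3A and WNT9A fell by 2.46, 1.33 and 1.14 on the log2 scale. WNT1, RSPO4 and the nuclear effectors LEF1 and TCF7 made up the rest of the 9, and no WNT ligand was called up. Among antagonists SFRP5 had 202, 215 and 224 CPM in CTRL and 96.7, 69.4 and 69.5 CPM in IND (-1.44 ± 0.15, adjusted p = 0.00214), opposite to SFRP4, and SFRP1, the most abundant member, had -0.40 (adjusted p = 0.331). The receptors FZD7 and FZD9 rose 1.65-fold and 1.74-fold, and RSPO2, which strengthens WNT signals, from 8.24, 8.19 and 9.69 CPM to 23.5, 25.1 and 28.9 CPM (adjusted p = 0.00122). In fits with 1 library left out the list had 4 down at the fewest, without CTRL replicate 3, and 12 at the most, without IND replicate 1. Among these 13 called genes, 6 passed in all 6 fits that left 1 library out, with the fewest passing without CTRL replicate 3.

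Other signalling lists held calls in both directions, where 2.38% of all genes tested were upregulated and 3.04% downregulated. Of 51 TGF-beta, activin and BMP genes 1 rose, the receptor BMPR1B (2.73-fold), and 4 fell: GDF7, with 122, 86.7 and 82.3 CPM in CTRL and 12.1, 18.9 and 21.4 CPM in IND (-2.47 ± 0.24, adjusted p = 0.00147), GDF5, INHBA and the BMP antagonist GREM1. In the retinoic acid list, RDH10, which makes retinaldehyde, fell by 1.12 on the log2 scale, and RARRES3, RBP4 and TGM2 rose. In the Notch list NOTCH4 and the ligand DLL1 rose, and DLL3 and HEYL fell. The receptor PDGFRA, a gene of mesenchyme, fell from 377, 416 and 418 CPM to 192, 224 and 244 CPM (-0.87 ± 0.13, adjusted p = 0.00654), while its ligand PDGFA rose 2.07-fold. In the IGF list PAPPA, a protease that frees IGFs, fell by 1.16, opposite to IGFBP7. HHIP, which binds hedgehog ligands, rose 2.21-fold, and the coreceptor BOC fell by 0.55. FGFR4 rose 2.17-fold, and the more abundant FGFR2 had 0.04 (adjusted p = 0.888). When 1 library was left out, 8 of the 20 called genes above passed in every fit, the fewest without CTRL replicate 2.

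Among transcription factors, TBX18, a T-box factor of epicardium and sinus node, had 81.1, 139 and 157 CPM in CTRL and 17.8, 30.2 and 28.7 CPM in IND (-2.29 ± 0.28, adjusted p = 0.00366). TBX5 and TBX3 fell by 1.30 and 0.84 on the log2 scale, and TBX4, a factor of hindlimb and lung mesenchyme, rose 2.61-fold. HCN4, the pacemaker channel, fell from 60.7, 98.3 and 103 CPM to 11.8, 14.8 and 15 CPM (-2.66 ± 0.22, adjusted p = 0.000666), and KCNJ3 and KCNJ5, which form the channel opened by acetylcholine in the atrium, fell by 2.27 and 1.27. These channels are among 79 potassium and HCN channel genes, of which 7 rose (8.86%, against 2.38% of all genes tested) and 6 fell (7.59%, against 3.04%). The muscle list, which holds heart genes such as MYL7, had 2 genes up and 2 down (median 0.17), and MYL7 was not called. No heart cell type is read from the genes named here. ALX4, a homeobox factor of craniofacial and limb mesenchyme, had 83.7, 60.3 and 56.5 CPM in CTRL and 7.91, 8.58 and 11.7 CPM in IND (-2.84 ± 0.21, adjusted p = 0.000491). Of 36 forkhead genes other than FOXL2, 6 rose (16.7%) and 3 fell (8.33%), FOXC2, FOXO6 and FOXO1. FOXD1 rose from 1.54, 1.89 and 2.23 CPM to 4.56, 4.97 and 4.59 CPM (adjusted p = 0.0102). FOXJ1, the factor of motile cilia, rose 2.28-fold. Of 26 HOX genes 2 fell (7.69%, against 3.04% of all genes tested), HOXC8 and HOXD3, and none rose. The median of the list was -1.07, and 24 of the fold changes were below 0. CTRL replicate 1 carried more of these genes, with a summed level of 1002 CPM against 647 and 668 in CTRL replicates 2 and 3 and 612, 406 and 568 in IND. The count of HOX genes down was 0 without IND replicate 2 and 5 without IND replicate 1. Of 34 nuclear receptors NR5A2 and NR2F1 rose (5.88%, against 2.38% of all genes tested), the latter 1.65-fold, and none fell. Without CTRL replicate 3, 8 of these 17 called genes still passed, and 6 passed in each of the 6 fits with a library left out.

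Of 36 cell cycle genes 2 fell (5.56%, against 3.04% of all genes tested) and none rose (against 2.38%), with a median of 0.05. Both were inhibitors of the cycle from 1 locus, CDKN2B, which had 35.3, 53 and 64.6 CPM in CTRL and 8.71, 12.8 and 9.81 CPM in IND (-2.29 ± 0.24, adjusted p = 0.00214), and CDKN2A, which fell by 1.24 on the log2 scale. The antisense gene CDKN2B-AS1 overlaps CDKN2B, and the libraries do not tell their reads apart. TOP2A and CDC20, genes of dividing cells, had -0.25 (adjusted p = 0.411) and 0.05 (adjusted p = 0.888). Of 15 pluripotency genes the DNA methyltransferase DNMT3B fell by 0.81. None of 27 cholesterol and fatty acid synthesis genes was called by edgeR, against 5.42% of all genes tested. Of the 27, 5 had an unadjusted p under 0.05, and DESeq2 called 0. Of 27 glycolysis and hypoxia genes ADM, the peptide adrenomedullin, rose 3.1-fold and NDRG1 1.64-fold. Of 24 genes of the stress response and serine synthesis the transporter SLC7A5 fell by 0.77 and VLDLR by 0.58 on the log2 scale. Of 13 mitochondrially encoded messenger RNAs, MT-ATP8 fell, from 29.4, 26.4 and 21.6 CPM to 9.52, 11.2 and 15.5 CPM (adjusted p = 0.0182), and the other 12 were not called. In this list 11 fold changes were below 0 (median -0.37) and 7 genes had an unadjusted p under 0.05. DESeq2 called 6 of them down. MT-ATP8 overlaps MT-ATP6, so its reads may be shared. Of the 8 called genes named here, 1 passed the threshold whichever library was left out, the fewest without CTRL replicate 2.

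**Figure D4:**
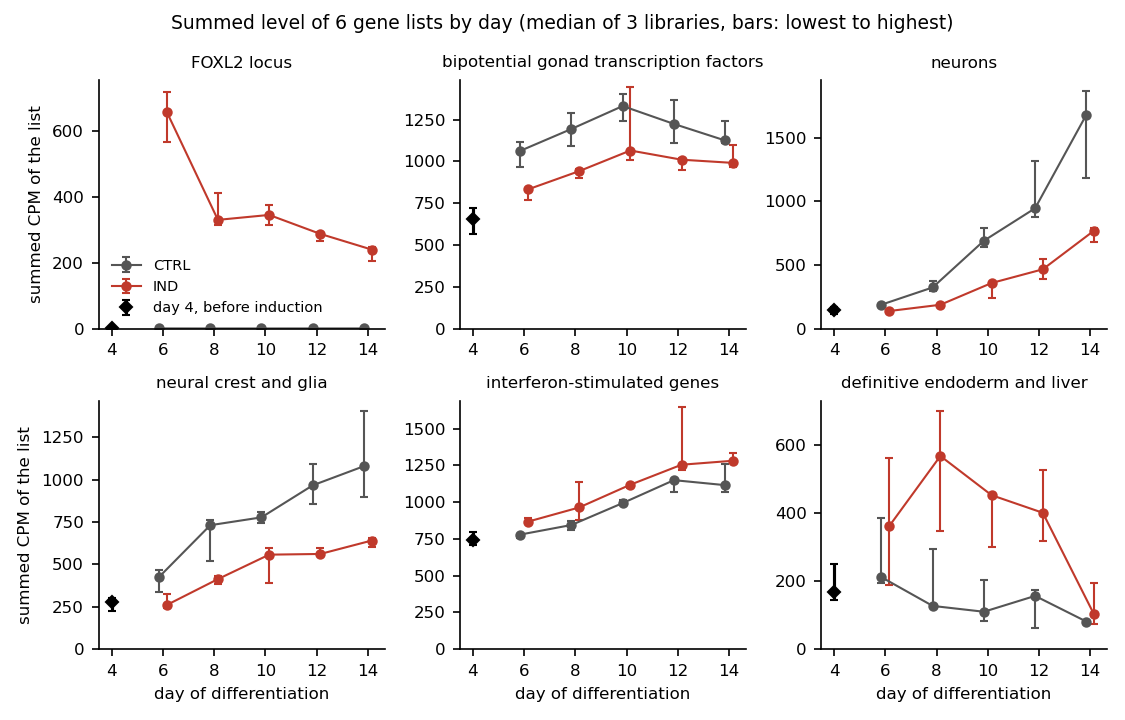
Summed CPM of 6 gene lists (vertical axes, each from 0) by day of differentiation (horizontal axis), with the median of 3 libraries as a point and the lowest and highest as bars, CTRL in grey, IND in red and day 4, before induction, in black. At day 12 the groups do not overlap in any of the 6 lists; the median of the neuron list in CTRL goes from 142 CPM at day 4 to 1679 at day 14, and that of the endoderm list in IND from 400.1 CPM at day 12 to 102 at day 14, where it overlaps CTRL.

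Day 12 was set beside the other days of induction, which share no library with it but come from the same differentiation. At day 10, 170 genes (0.856%) were upregulated and 234 (1.18%) downregulated of 19858 tested, and without IND replicate 2 of that day 1804 and 1964. At day 14 the counts were 612 (3.21%) and 994 (5.22%) of 19055. Of the day 12 upregulated genes 453 were tested at day 14. There 422 (93.2%, against 50.7% of all genes) had the same direction and 212 (46.8%, against 3.21%) were called. Of the downregulated genes 598 were tested at day 14. There 548 (91.6%, against 49.3% of all genes) had the same direction and 337 (56.4%, against 5.22%) were called. At day 10 with all libraries, 121 of 448 upregulated (27.0%) and 164 of 598 downregulated genes (27.4%) were called in the same direction. Over all genes tested that day the shares were 0.856% and 1.18%. IND replicate 2 of day 10 stood apart, with 23940837 counts and 19254 genes with counts, against 43395080 to 49562327 counts and 27887 to 28848 genes in the other 5 libraries of that day. Without it the calls were 384 of 460 (83.5%) and 533 of 601 (88.7%), where 8.74% and 9.51% of all genes tested were called up and down. At day 8 it was 302 of 439 (68.8%, against 7.49% of all genes) and 352 of 573 (61.4%, against 6.67%). At day 6, 2 days after induction, it was 80 of 424 (18.9%, against 1.29%) and 144 of 530 (27.2%, against 2.37%).

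The induction effect was also tested for a difference between days. No gene passed in the difference of day 12 and day 10 (0% of 21096 genes, 670 at an unadjusted p under 0.05, 3 by DESeq2), and none without IND replicate 2 of day 10. None passed in the difference of day 12 and day 14 (0% of 20927, 2653 at an unadjusted p under 0.05), while DESeq2 gave 208. The fold changes of the days are set side by side for some genes named above. Log2 fold changes of SFRP4 on days 8, 10, 12 and 14 were 4.99, 8.13, 8.99 and 6.15. EPCAM had 2.01, 1.61 and 0.36 on days 10, 12 and 14, AFP 1.18, 2.61 and 1.15, and STK26 -1.82, -1.24 and -0.48. WT1 had -2.24, -1.60 and -0.57 on these days, and GATA4 -1.11, -0.90 and -0.56. CDKN2B had -2.01, -2.29 and -2.57, and TBX18 -2.30, -2.29 and -2.78.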

How the data were processed

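RNA was measured by poly-A, non-directional RNA-seq. The authors trimmed reads with fastp (0.23.2), aligned them to GRCh38 with HISAT2 (2.0.5) and made the deposited count per GENCODE gene with featureCounts (1.5.0-p3), raw and not normalised. The authors also deposited FPKM, counts scaled to gene length and depth, which were used here to rank genes by abundance and in an alternative test. Low counts limit precision: 3 counts, taken as the floor, covers counting error only.

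Counts were tested with edgeR (4.0.16, quasi-likelihood test, filterByExpr, TMM, robust) on the 6 day 12 libraries in R (4.3.3), and p-values were adjusted by Benjamini-Hochberg over all genes tested, with a threshold of 0.05. CPM used TMM library sizes. Each SE was the absolute log2 fold change over the square root of the test's F. It was not estimated directly, and it can be too small for genes near the floor in CTRL, such as FOXL2 and SFRP4. Days 10 and 14 were fitted alone, and differences between days as interaction terms. The steps were run on simulated data with the same spread for every gene and no library that stood apart. The day 12 libraries differ from that setting, so the run does not bear on how calls depend on single libraries. Alternatives used DESeq2 (1.42.0) and limma-trend (3.58.1). Promoters were RefSeq windows of GRCh38.p14, matched by Ensembl identifier, else by symbol or synonym, and nearest start for 13326 of the 19924 genes tested. The guide sequences are not shown here. The labels do not say that same-numbered libraries belong together, and the numbers were not used as pairs.

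Members, gene lists and tests were chosen with earlier results of these data known. Named genes were the FOXL2 locus, the study's marker genes, the 12 largest changes in each direction with average log2 CPM of at least 1, the 10 most abundant in each direction among those changed at least 2-fold, and in each list up to 5 called members per direction and the 2 most abundant not called. ALB, B2M, COL1A1, FLT1, HLA-C, IFIT3, KDR, LEF1, NR5A1, POU5F1, RSPO4, SOX10, STMN2, TCF7, TEK, STAR, CYP11A1 and WNT1 fell outside this rule and were chosen for their role after their values were seen. Not every gene that met the rule is named, and some are not reported here.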

Additional observations from a re-analysis of the deposited data

How the results depend on the processing

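Every gene called at day 12 kept its direction in each alternative that gave it a value, as follows where the groups do not overlap. The counts moved. Instead of 1080 calls (475 up, 605 down), DESeq2 gave 1956 (892 up, 1064 down), and no filter on low counts gave 1878 (824 up, 1054 down). Limma-trend on the deposited FPKM gave 570 (217 up, 353 down) with a pseudocount of 1 and 541 (198 up, 343 down) with 0.1, over fewer genes. DESeq2 called 1077 of the 1080. Leaving out 1 library gave 417 to 1979 calls, 158 to 853 up and 259 to 1126 down. The replicate number pairs no libraries by the labels, and the deviations of same-numbered libraries at day 12 correlated by 0.0676, 0.187 and -0.186. With the number as a block 1371 genes were called, 996 of them among the 1080, and not every library correlated best with its own number.

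At day 10 DESeq2 called 1787 genes, the block 17, and fits without 1 library 11 to 3768; at day 14 the latter gave 905 to 1987. For day 12 against day 10 DESeq2 called 3 genes. For day 12 against day 14 DESeq2 called 208, the fit over all 33 libraries 2, the block 7, and fits without 1 library 0 to 98. The cause of these shifts was not tested. Genes near the floor of 3 counts, such as OAS1, PSMB9 and C6 in CTRL, are limited by depth.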
